A study of Mus musculus with 16 samples.

Results

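The comparison described here is that of mice given the odorant 2-hexanone, a small ketone, with mice given vehicle, within reporter-positive (GFP+) cells sorted from the olfactory mucosa. Its members are the 4 odor GFP+ and the 4 vehicle GFP+ arrays, 8 of the 16 arrays in the series, taken by their titles, and all 22206 non-control probe sets of the Clariom S mouse array were tested. The other 8 arrays hold the GFP- cells of the same pools.

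All mice were S100a5-tauGFP mice, in which the promoter of S100a5 drives a green fluorescent reporter. The labels read here name neither the copy number of the allele nor the background strain. The 24 mice were of both sexes and 7 to 12 weeks old, and each sat alone in a chamber with clean air flowing at 3.1 L per min for 40 h. After 26 h they received pulses lasting 10 s, repeated at 20 min intervals, of filtered air (vehicle) or of 2-hexanone (odor). Dissociated mucosa was sorted by fluorescence, and each sample held cells of 3 mice, so every replicate is a pool and no value of a single mouse exists. Biotin-labelled cRNA was made from 50 to 100 ng of total RNA.

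As background, a mature olfactory sensory neuron expresses 1 odorant receptor gene out of a very large family, and each odorant activates only the neurons whose receptors bind it. Receptor binding opens a cyclic nucleotide-gated channel through a G protein and adenylyl cyclase, and repeated activity changes the neuron's expression of calcium-binding, adhesion and axon guidance genes. S100a5 encodes a calcium-binding protein that is abundant in recently active olfactory neurons. The comparison asks which receptor transcripts become more abundant among reporter-positive cells when the odorant is given, and what else changes in those cells.

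Array medians lay between 5.70 and 5.76 on the deposited log2 scale in the 8 GFP+ samples, and the 8 arrays correlated at Pearson r of 0.980 to 0.992 over probe sets. The values reach 19.81, more than a scanner of 16 bits can give, so some transformation that the labels do not name was applied, and each log2 difference and fold below is on that scale. Background was taken as the highest of 23 antigenomic control bins on each array, 6.16 to 7.33 in the GFP+ samples. By their average over the GFP+ arrays, 9734 probe sets and 744 of 1080 odorant receptors lay above background. The number of arrays limits the precision: the 95% interval of a receptor's difference had a median half-width of 0.78 on the log2 scale among receptors above background, or 1.71-fold.

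The sorted cells carried the markers of mature olfactory neurons with either treatment. S100a5 stood at 16.92, 16.83, 16.17 and 16.98 with odor and at 17.02, 16.27, 16.25 and 16.11 with vehicle. The groups overlapped, and the log2 difference was 0.31 ± 0.25 (SE). Omp, which mature olfactory neurons express at very high levels, stood at 19.45 ± 0.04 with odor and at 19.38 ± 0.12 with vehicle (SD, n = 4), close to the top of the scale. Of 15 mature neuron markers, all 15 lay above background on all 8 arrays and none rose or fell (median log2 difference -0.01, against 0.00 over all probe sets).

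2 of 22206 probe sets rose with 2-hexanone in GFP+ cells and 0 fell, at an adjusted p below 0.05 (limma with Benjamini-Hochberg adjustment over all probe sets). This is 0.00901% of those tested. The 2 are the odorant receptor Olfr1494 and Camk2n1, which encodes an inhibitor of the calcium/calmodulin-dependent kinase CaMKII. At an unadjusted p below 0.05, 439 probe sets were higher (1.98%) and 430 lower (1.94%). Arrays did not overlap between the groups for 224 probe sets that were higher with odor (1.01%) and 223 that were lower (1%), and among probe sets above background for 0.884% and 0.74%. With arrays under background raised to it, 7 of the 10866 probe sets above it on 1 or more of 8 arrays were called, 6 higher (0.0552%; Olfr1494, Camk2n1, Olfr195, Pcdh10, Olfr1110 and Sema7a) and 1 lower (0.0092%; Olfr433), in a fit counted after the data were seen. The differences of Pcdh10, Olfr1110 and Sema7a did not change in that fit, but their standard errors were smaller. The replaced values enter the estimate of spread that all probe sets share, so the added calls depend on the replacement.

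**Figure D1:**
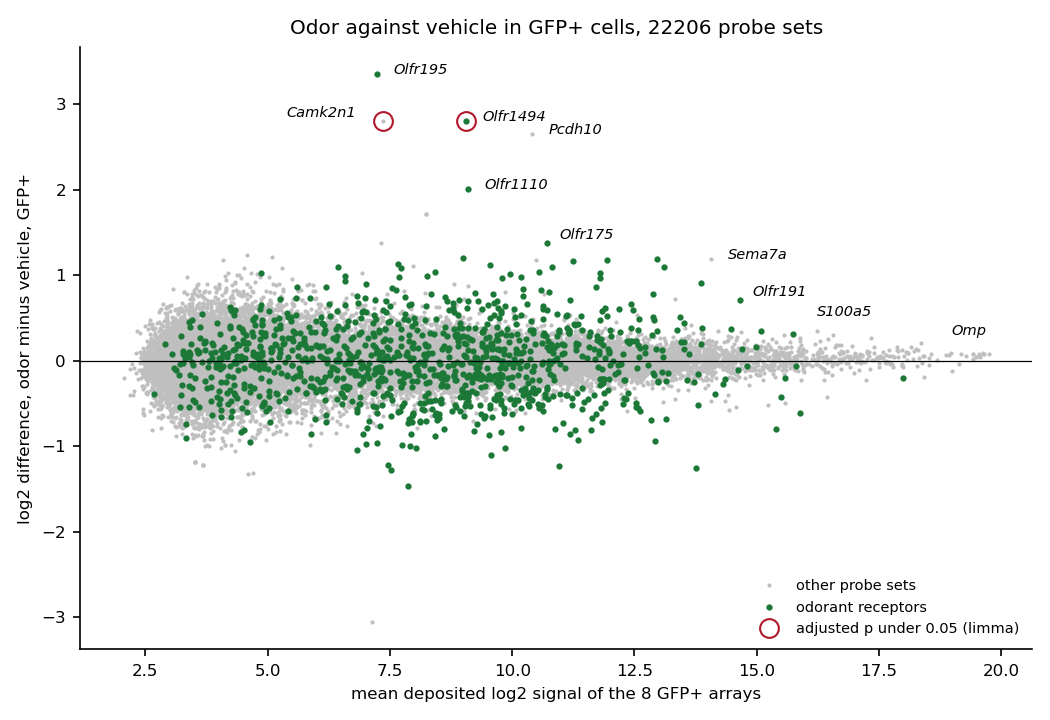
Log2 difference between odor and vehicle in GFP+ cells against the mean deposited log2 signal of the 8 GFP+ arrays, for 22206 probe sets, with 1080 odorant receptors in green and the 2 probe sets past the threshold circled. Olfr1494 and Camk2n1 lie at 2.81, Olfr195 at 3.35 and Pcdh10 at 2.65, while S100a5 and Omp lie close to 0.

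Olfr1494, a receptor of the MOR266 family on chromosome 19, rose 7.02-fold. Its signal was 10.13, 11.00, 10.22 and 10.45 with odor against 7.97, 8.23, 6.88 and 7.47 with vehicle. All 8 values lay above background, and the lowest odor array lay well above the highest vehicle array. The log2 difference was 2.81 ± 0.27 (SE; 95% interval 2.24 to 3.38; adjusted p = 0.000128). The GFP- cells of the same pools held Olfr1494 at 10.96 ± 0.24 with odor and 10.92 ± 0.28 with vehicle (SD, n = 4), a difference of 0.04. With vehicle the GFP+ signal thus lay below the GFP- signal of the same probe set, and with odor it came close to it. More cells with the receptor and more of its RNA per cell cannot be told apart in these samples.

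The first 50 coding bases of Olfr1494 (RefSeq, GRCm38.p6, chr19:13749108-13749157, plus strand) are shown with those of its neighbours Olfr1491 (chr19:13704829-13704878) and Olfr1495 (chr19:13768344-13768393), of the same family and strand, to show how far the genes differ. Sequences run 5′ to 3′, and capitals mark bases that differ from Olfr1494.
Olfr1494: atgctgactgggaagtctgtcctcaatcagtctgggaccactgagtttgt
Olfr1491: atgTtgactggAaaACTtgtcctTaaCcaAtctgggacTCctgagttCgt
Olfr1495: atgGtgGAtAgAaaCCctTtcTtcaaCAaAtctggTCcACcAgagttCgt
Olfr1491 differed at 11 and Olfr1495 at 18 of these 50 bases. Neither passed, and both lay under background on all 8 GFP+ arrays. These neighbours were chosen after the values were seen. Of 8 MOR266 members 6 had a difference above 0, where 50.6% of all probe sets did, and Olfr1494 alone passed the threshold.

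4 further receptors had the lowest p among those higher with odor, and none of them passed. Olfr195, of the MOR184 family on chromosome 16, had the highest difference of all 1080 receptors as deposited. It stood at 8.81, 8.76, 7.88 and 10.18 with odor and at 6.46, 4.06, 4.62 and 7.07 with vehicle. The groups did not overlap, but only 2 of 4 vehicle arrays lay above background. Its log2 difference was 3.35 ± 0.55 (adjusted p = 0.0609), or 2.24 with the vehicle arrays under background raised to it, which is below that of Olfr1494. In GFP- cells Olfr195 stood at 9.85 ± 0.47 with odor and 10.08 ± 0.39 with vehicle (SD, n = 4).

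Olfr1110, of the MOR172 family on chromosome 2, stood at 9.73, 10.25, 8.91 and 11.47 with odor and at 8.50, 8.12, 7.67 and 8.04 with vehicle. Every odor array lay above every vehicle array, and the difference was 2.01 ± 0.39 (adjusted p = 0.164). As with Olfr1494 and Olfr195, its GFP- level was higher than its GFP+ level with vehicle, at 11.81 ± 0.33 in GFP- cells (SD, n = 4), and differed by 0.16 between treatments there. With 1 pool left out, each of Olfr1110 and Olfr195 passed in 1 of 8 fits. Olfr1110 passed without odor replicate 3 at 2.40 (adjusted p = 0.0389), and Olfr195 without vehicle replicate 4 at 3.86 (adjusted p = 0.0135). Over the 8 fits the adjusted p reached 0.885 for Olfr1110 and 0.656 for Olfr195 (limma). Fitted on the GFP+ arrays alone, both had an adjusted p of 0.874.

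Olfr175, a second MOR184 receptor, stood at 11.72, 11.11, 11.26 and 11.54 with odor and at 10.54, 10.34, 9.09 and 10.14 with vehicle. The groups did not overlap, and the difference was 1.38 ± 0.31 (adjusted p = 0.448). Olfr193, of the MOR113 family, stood at 13.47, 13.34, 13.52 and 14.27 with odor and at 12.27, 13.13, 11.95 and 12.84 with vehicle, a difference of 1.10 ± 0.26 (adjusted p = 0.68). Its odor arrays lay above its vehicle arrays. In GFP- cells Olfr193 stood at 10.01, 10.14, 10.33 and 10.59 with odor and at 11.05, 11.19, 11.59 and 11.45 with vehicle, so the odor arrays lay below the vehicle arrays there (-1.05).

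**Figure D2:**
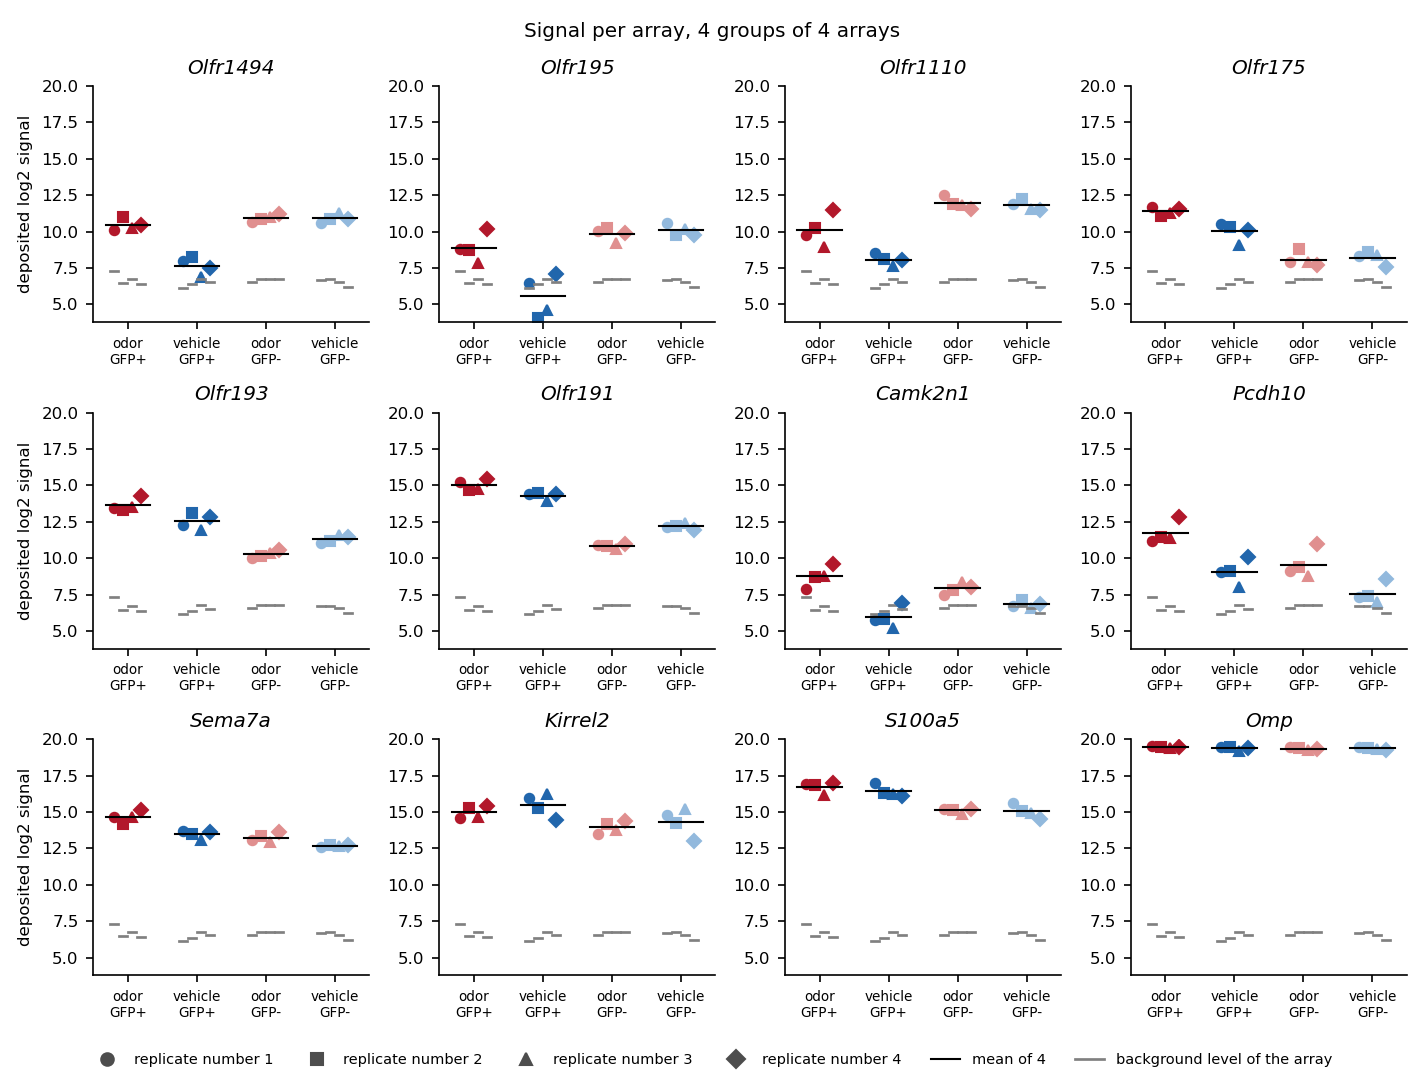
Deposited log2 signal of 12 genes on each of the 16 arrays (y axis) by treatment and sorted fraction (x axis), with the shape of a point giving the replicate number, black bars the mean of 4 arrays and grey ticks the background level of each array. The GFP+ odor arrays of Olfr1494, Olfr195, Olfr1110, Camk2n1, Pcdh10 and Sema7a lie above their GFP+ vehicle arrays, and S100a5, Kirrel2 and Omp overlap.

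Over the whole receptor family the difference was centred on 0. Of 1080 receptors 1 rose and 0 fell, 543 had a difference above 0, and the median was 0.00, as it was over all probe sets. Differences ran from -1.47 (Olfr1276) to 3.35 (Olfr195). A difference of 1 or more on the log2 scale was seen for 19 receptors upward and 10 downward, and 1 of 2 or more for 3 upward (Olfr195, Olfr1494 and Olfr1110) and 0 downward. At an unadjusted p below 0.05, 56 receptors were higher and 29 lower, 7.87% of the family against 3.91% of all probe sets. Arrays of the 2 groups did not overlap for 24 higher receptors (2.22%, against 1.01% of all probe sets) and 11 lower ones (1.02%, against 1%). Receptors also had a larger standard error (median 0.36 against 0.24 over all probe sets), so these shares are a description and no test of the family.

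Receptor families are groups of like sequence, here by their MOR number. Among the 89 families with at least 4 measured members, MOR184 had the highest median difference, 0.86. All 8 of its members had a difference above 0, and none passed the threshold. The 7 above background on average ran from 0.43 (Olfr178) to 3.35 (Olfr195). Next came MOR251 (median 0.65, 4 of 5 above 0), MOR183 (0.55, 5 of 6), MOR253 (0.53, 8 of 10) and MOR266 (0.51, 6 of 8). At the other end stood MOR246 with a median of -0.83 and 0 of 6 members above 0, MOR223 (-0.56, 1 of 9) and MOR31 (-0.50, 2 of 11). In GFP- cells, where 50.1% of all probe sets had a difference above 0, 1 of 8 MOR184 members did (median -0.19), and the MOR246 members had a median of -0.49. Families were ranked on these values, so their order carries no test.

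MOR184 and MOR183 lie together on chromosome 16, and the receptors of that chromosome had the highest median of the 13 chromosomes with 10 or more measured receptors. Their median was 0.30, and 26 of 36 had a difference above 0. In gene order, the receptors from Olfr173 to Olfr181, all MOR184, had differences of 0.43 to 1.38, and the 9 MOR182 receptors from Olfr198 to Olfr209 had differences of -0.43 to 0.85, with 6 below 0. Olfr177 (MOR184) stood at 9.37, 9.43, 9.65 and 9.92 with odor and at 8.98, 8.92, 7.37 and 8.29 with vehicle, a difference of 1.20 ± 0.33. Olfr186 (MOR183) stood at 10.01, 10.48, 10.52 and 10.86 with odor and at 9.46, 9.33, 9.35 and 9.66 with vehicle, a difference of 1.02 ± 0.31. Neither group overlapped the other in either receptor, and neither receptor passed. Both were chosen after their values were seen. The receptors of chromosome 19, which holds Olfr1494, had a median of 0.16 with 43 of 61 above 0, and those of chromosome 14 one of -0.34 with 13 of 39 above 0.

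**Figure D3:**
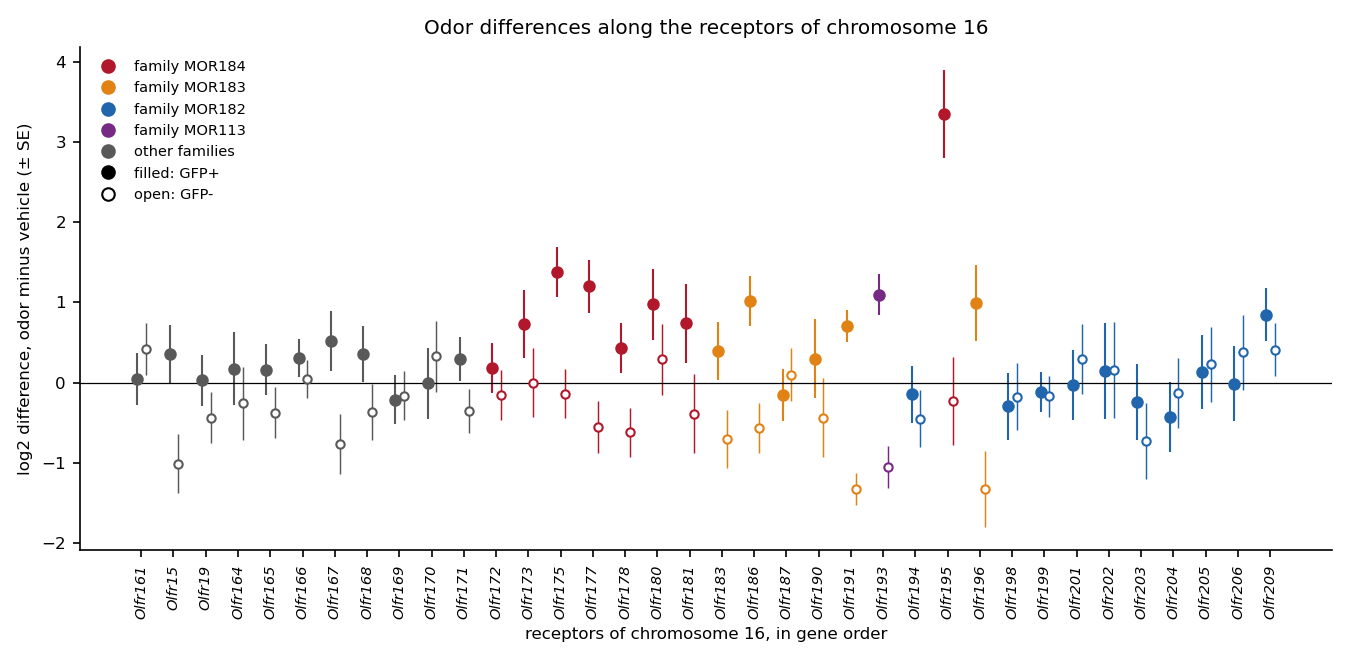
Log2 difference between odor and vehicle (± SE, y axis) for the 36 measured receptors of chromosome 16 in gene order (x axis), with filled points for GFP+ and open points for GFP- cells and colours for receptor families. The MOR184 receptors lie above 0 in GFP+ cells, and Olfr191, Olfr193 and Olfr196 lie below 0 in GFP- cells.

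Neighbouring receptors can be so alike that their probe sets may share signal. Olfr191 (MOR183) and Olfr193 are neighbours on chromosome 16 with differences above 0 in GFP+ and below 0 in GFP- cells. The 25 bases from an ATG of each (RefSeq, GRCm38.p6, minus strand, chr16:59086457-59086481 and chr16:59110584-59110608) are shown with those of the nearby MOR183 receptor Olfr196 (chr16:59168117-59168141, minus strand). In Olfr191 and Olfr196 this ATG is the annotated start. In Olfr193 it is the first ATG after that start, 25 bases in, and whether coding starts there was not tested. Capitals mark bases that differ from Olfr191.
Olfr191: atggaaacggacaacacaacactgc
Olfr193: atggaaaTggacaacacaacactgc
Olfr196: atggGaaTAgaGaaTacaacactAc
Olfr193 differed from Olfr191 at 1 base and Olfr196 at 6 of these 25. Over 300-base windows around their annotated starts, 194 of 275 aligned bases of Olfr191 and Olfr193 matched (70.5%, without gaps), where the nearest of the other receptor windows to those of Olfr1494, Olfr175, Olfr177, Olfr186 and Olfr1110 matched at no more than 43.1%. Each window holds 250 bases before and 50 after the start. The match is thus mostly of bases before the start and does not measure how alike the probed RNAs are. Whether the probes tell Olfr191 and Olfr193 apart was not tested, so the 2 values may not be independent. Olfr191 stood at 15.23, 14.68, 14.72 and 15.43 with odor and at 14.43, 14.46, 13.92 and 14.41 with vehicle. The groups did not overlap, and the difference of 0.71 ± 0.20 did not pass (unadjusted p = 0.00223, limma).

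No receptor fell past the threshold, apart from Olfr433 when arrays under background were raised to it (adjusted p = 0.0217, limma). The 5 lower receptors of lowest p were Olfr433 (log2 difference -1.28 ± 0.32, adjusted p = 0.869), Olfr715 (-0.96), Olfr961 (-0.81), Olfr728 (-0.86) and Olfr1509 (-1.23 ± 0.43). Olfr433 stood at 7.37, 6.77, 7.26 and 6.15 with odor and at 8.76, 7.98, 7.99 and 7.95 with vehicle. Its groups did not overlap. Olfr728 lay above background on 0 of 4 odor and 2 of 4 vehicle arrays. With the arrays under background raised to it, its difference was 0.13, which holds differences of background level between arrays. Olfr1509, a receptor for the sulfur-containing mouse urine odorant MTMT, stood at 9.87, 11.05, 9.42 and 11.05 with odor and at 11.34, 11.69, 11.46 and 11.84 with vehicle. Its difference was of the same size in GFP- cells (-1.23). Of 10 measured receptors with well-studied ligands, none passed and 5 had a difference above 0 (median 0.03). Of 14 trace amine-associated receptors, which bind volatile amines, none passed and the median was 0.02. Taar5, the one of lowest p, lay under background on all 8 arrays.

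Camk2n1, the other gene that rose, encodes a small protein that binds and inhibits active CaMKII. It stood at 7.90, 8.71, 8.81 and 9.61 with odor and at 5.76, 5.86, 5.22 and 6.95 with vehicle. The groups did not overlap, and 4 of 4 odor but 1 of 4 vehicle arrays lay above background. The log2 difference was 2.81 ± 0.35 (7.01-fold; 95% interval 2.08 to 3.54; adjusted p = 0.00268), or 2.19 with the vehicle arrays under background raised to it. Fitted on the 8 GFP+ arrays alone, the same difference did not pass (adjusted p = 0.227). In GFP- cells each odor array of Camk2n1 again lay above each vehicle array, as for 0.941% of all probe sets (0.833% lay below), with a difference of 1.10 (unadjusted p = 0.00521, limma), and the change between fractions of 1.71 did not pass (unadjusted p = 0.00275). Of the 6 genes in the list of CaMKII subunits and inhibitors, Camk2n1 alone passed. The other inhibitor, Camk2n2, was at -0.31 ± 0.18 with all 4 odor arrays below the vehicle arrays, as for 1% of all probe sets. Its odor arrays lay between 6.89 and 7.28, and that of replicate 1 lay under its background of 7.33. The subunit Camk2d was at 0.27 ± 0.34, Camk2a was at -0.13 and Camk2g at 0.15, and Camk2b lay under background on all 8 arrays.

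Pcdh10, a protocadherin of cell adhesion, and Sema7a, a membrane-anchored semaphorin of axon guidance, had the lowest p of the other non-receptor genes above background. Pcdh10 stood at 11.21, 11.46, 11.38 and 12.86 with odor and at 9.06, 9.12, 8.05 and 10.06 with vehicle. The groups did not overlap, and the difference was 2.65 ± 0.50 (adjusted p = 0.164). In GFP- cells Pcdh10 stood at 9.09, 9.40, 8.79 and 10.99 with odor and at 7.32, 7.39, 7.03 and 8.57 with vehicle, again with every odor array above every vehicle array (1.99, unadjusted p = 0.000862, limma). The array of replicate number 4 was the highest of its group in all 4 groups.

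Sema7a stood at 14.65, 14.18, 14.63 and 15.16 with odor and at 13.72, 13.48, 13.09 and 13.60 with vehicle. These groups did not overlap either, and the difference was 1.18 ± 0.21 (adjusted p = 0.132), with 0.56 in GFP- cells, where the groups did not overlap. With arrays under background raised to it across all probe sets, Olfr195, Olfr1110, Pcdh10 and Sema7a passed (adjusted p = 0.0015, 0.011, 0.00685 and 0.0146, limma). The differences of Olfr1110, Pcdh10 and Sema7a were the same as without raising. Their standard errors were 0.33, 0.42 and 0.20 there, since the fit shares its estimate of spread among all probe sets. Their passing thus does not come from a change in their own differences. Raised arrays take the background level as their value in every probe set under it, and these probe sets enter the shared estimate. The adjusted p-values of that fit thus depend on the replacement and are no separate support. Among 22 measured axon guidance genes, such as the neuropilin Nrp2, plexins, Robo receptors and ephrins, 0 rose and 0 fell, where 0.00901% of all probe sets were called. 13 had a difference above 0 and the median was 0.03. Apart from Pcdh10 and Sema7a they lay between -0.52 (Kirrel2) and 0.28 (Ncam2).

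The 250 bases before the annotated starts of S100a5, whose promoter drives the reporter, and of Pcdh10 and Sema7a are shown because S100a5 defines the sort and the odor arrays of Pcdh10 and Sema7a lay above the vehicle arrays in both fractions (RefSeq, GRCm38.p6, plus strand, chr3:90608272-90608521, chr3:45378148-45378397 and chr9:57939862-57940111). The windows were searched on both strands for TGACG, the core of the cyclic AMP response element, and for TAATTA, a homeodomain site. Capitals mark TGACG, and TAATTA was not found in these windows.
S100a5: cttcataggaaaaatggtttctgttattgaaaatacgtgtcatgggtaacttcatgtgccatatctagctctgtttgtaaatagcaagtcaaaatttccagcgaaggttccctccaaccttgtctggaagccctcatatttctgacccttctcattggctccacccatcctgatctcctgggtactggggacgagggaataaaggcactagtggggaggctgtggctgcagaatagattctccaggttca
Pcdh10: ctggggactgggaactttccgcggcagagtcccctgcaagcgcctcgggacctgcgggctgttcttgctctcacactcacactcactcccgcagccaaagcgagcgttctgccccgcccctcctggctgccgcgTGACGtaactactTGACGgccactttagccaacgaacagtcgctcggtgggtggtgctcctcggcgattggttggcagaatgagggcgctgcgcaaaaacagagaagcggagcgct
Sema7a: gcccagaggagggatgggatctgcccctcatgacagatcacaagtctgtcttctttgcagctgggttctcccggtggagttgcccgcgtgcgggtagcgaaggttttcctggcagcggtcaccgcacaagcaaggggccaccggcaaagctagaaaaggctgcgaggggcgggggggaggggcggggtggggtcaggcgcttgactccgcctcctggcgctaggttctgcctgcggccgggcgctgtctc
The Pcdh10 window holds 2 matches, the farther one starting 116 bases before the annotated start. TGACG is found in 17.8% of all 32851 windows of this length and TAATTA in 4.84%, so a match is a description of the letters only.

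Of the 17 measured activity-dependent genes of olfactory neurons, most lay close to 0. Camk2n1 rose, 0 fell, 8 had a difference above 0, and the median was -0.01. Camk2n1 and Pcdh10, 2 of 17, were the members whose odor arrays all lay above the vehicle arrays, as for 1.01% of all probe sets. Kirrel2, an adhesion protein whose level is known to follow activity, stood at 14.56, 15.26, 14.69 and 15.39 with odor and at 15.98, 15.28, 16.23 and 14.47 with vehicle. Its groups overlapped (-0.52 ± 0.42), while the related Kirrel3 was at 0.00 ± 0.16. The list was drawn up with earlier results of these data known, so its count is no independent support.

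Immediate early genes, which neurons transcribe within minutes of activity, showed no member past the threshold. Of 20 measured, 12 lay above background on average, 7 had a difference above 0, and the median was -0.03. Npas4, the member of lowest p, lay under background on all 8 arrays. Fos stood at 10.17, 11.00, 10.35 and 11.14 with odor and at 10.72, 10.91, 11.27 and 11.23 with vehicle, overlapping (-0.37 ± 0.26), and Jun was at 0.31 ± 0.20.

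No gene of the machinery of odorant detection passed. Of 20 measured signal transduction genes, 17 above background on all 8 arrays, 0 rose and 0 fell, and the median was -0.02. Gng13, a G protein gamma subunit, was at -0.20 ± 0.20, and Cngb1, a channel subunit, lay under background on all 8 arrays. Gnal, the olfactory G protein alpha subunit, was at -0.04 ± 0.15, Adcy3, the adenylyl cyclase, at -0.07 ± 0.14, and Cnga2, the channel's main subunit, at 0.12 ± 0.22. Of 17 genes of receptor choice and of the unfolded protein response that goes with it, none passed and the median was -0.04. Ddit3, a stress-induced transcription factor, was highest at 0.32 ± 0.19, and Lhx2 and Ebf1, which bind receptor enhancers, were at -0.04 and -0.10.

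Transcripts of supporting cells were present in the sorted cells and mostly had differences above 0, with none past the threshold. Of 15 sustentacular markers 12 had a difference above 0, against 50.6% of all probe sets, the median was 0.36, and 2 were higher at an unadjusted p below 0.05, against 1.98% of all probe sets. Their average level was 6.61 to 6.95 on the odor arrays and 6.19 to 6.65 on the vehicle arrays, overlapping, with 4 of 15 above background on all 8 arrays and 7 on none. Cbr2, a carbonyl reductase, stood at 11.07, 11.29, 10.97 and 10.86 with odor and at 10.65, 10.54, 10.63 and 9.26 with vehicle, a difference of 0.78 ± 0.29 without overlap. Sec14l3, a lipid-binding protein, was at 0.72 ± 0.32.

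The list of 24 measured xenobiotic metabolism genes, many of which supporting cells express, had 17 above 0, against 50.6% of all probe sets, and a median of 0.21. Of these genes 4 were higher at an unadjusted p below 0.05, against 1.98% of all probe sets. Its average level was 7.15 to 7.26 with odor and 6.73 to 7.10 with vehicle, without overlap, although 13 of its 24 genes lay under background on all 8 arrays. Cyp2g1, an olfactory cytochrome P450 that is in both lists, was at 0.72 ± 0.37, Gstm1, a glutathione transferase, at 0.52 ± 0.22, and Cyp2b10 lay under background on all 8 arrays. What part supporting-cell RNA has in any difference was not tested. In GFP- cells the medians of the 2 lists were 0.30 and 0.03.

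Markers of the other cell types the sort could hold were mostly under background. All 10 basal and progenitor markers and 15 of 18 immune markers lay under it on all 8 arrays, with medians of 0.10 and 0.20. Mki67, a marker of dividing cells, and Ptprc, the pan-leukocyte marker, were both under background on all 8 arrays. Immature neuron markers, 9 of 16 above background on all 8 arrays, had a median of 0.06, and Stmn1 was at -0.21 ± 0.22. The medians were 0.10 for Bowman gland and respiratory markers, -0.04 for microvillous cells, 0.00 for endothelial and stromal cells, -0.19 for ensheathing glia, -0.32 for the 2 measured erythroid genes, -0.04 for vomeronasal and non-canonical sensory neurons and -0.02 for genes that mark zones of the epithelium. No member of these lists passed.

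**Figure D4:**
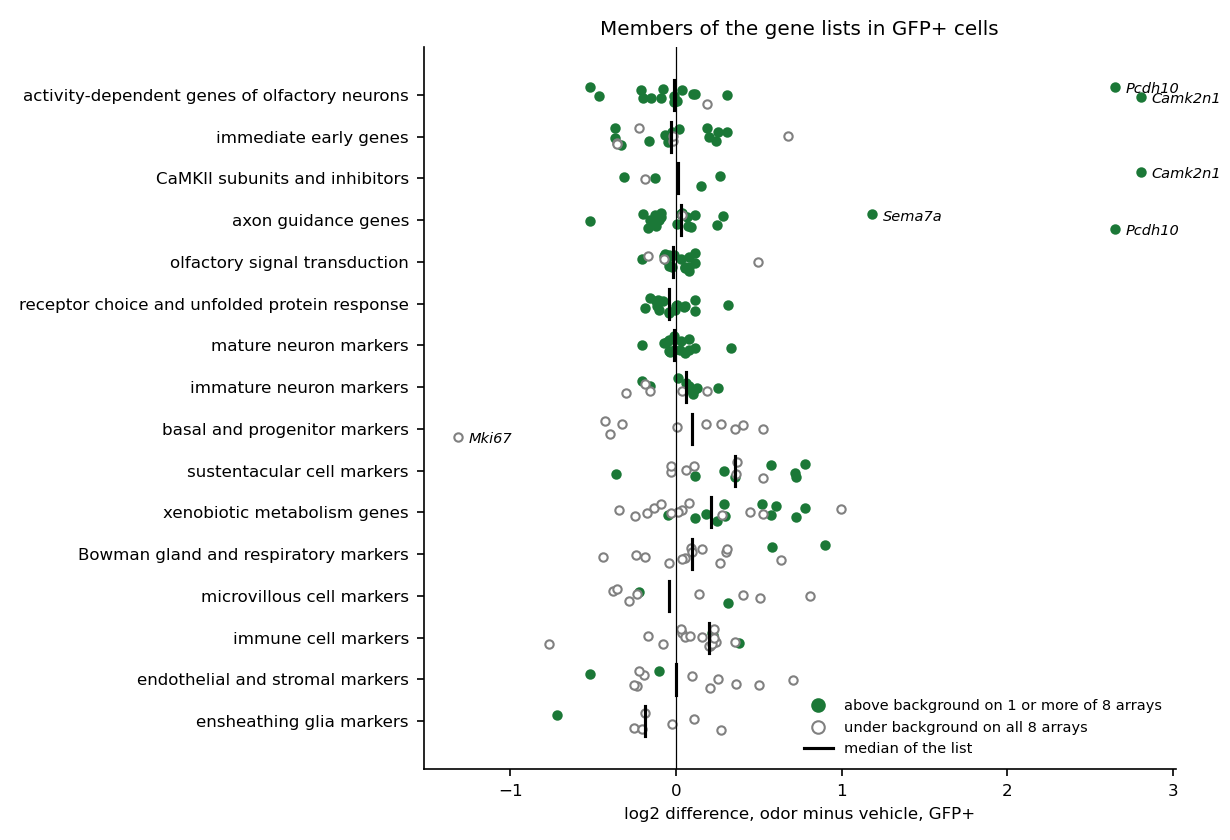
Log2 difference between odor and vehicle in GFP+ cells (x axis) for each member of 16 gene lists (y axis), with filled points for genes above background on 1 or more of 8 arrays, open points for those under it on all 8, and black bars for the list medians. Camk2n1, Pcdh10 and Sema7a stand apart from their lists, and the sustentacular and xenobiotic medians lie at 0.36 and 0.21.

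The same contrast in GFP- cells shows where the GFP+ difference stands apart. In GFP- cells 0 of 22206 probe sets passed (limma; 547, or 2.46%, at an unadjusted p below 0.05). The test of the change, the GFP+ difference minus the GFP- difference, called 2 probe sets (0.00901%; 2.93% at an unadjusted p below 0.05), Olfr1494 and Olfr191, both with a GFP+ difference higher than the GFP- difference. For Olfr1494 the change was 2.77 (adjusted p = 0.0116). For Olfr191 it was 2.04 (adjusted p = 0.0116), made of 0.71 in GFP+ and -1.33 in GFP- cells. In GFP- cells Olfr191 stood at 10.94, 10.84, 10.67 and 10.96 with odor and at 12.17, 12.20, 12.42 and 11.94 with vehicle, each odor array below each vehicle array (adjusted p = 0.065). With a single pool left out, the change called 0 or 1 probe sets: Olfr1494 passed without vehicle replicate 1 or 2 and in none of the other 6 cases, and Olfr191 in none.

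Many receptors of chromosome 16 had opposite signs in the 2 fractions. Of its 36 receptors 20 (55.6%) were higher in GFP+ and lower in GFP- cells, where 22.0% of the 1044 receptors of other chromosomes and 24.6% of all probe sets were. By fraction, 26 of the 36 were above 0 in GFP+ and 26 below 0 in GFP- cells. The chromosome was picked for its GFP+ median, which fixes many of the GFP+ signs. The share is thus a description and no test of whether the signs oppose each other. Over all 1080 receptors the 2 differences correlated at Pearson r = 0.19 as a description; the fractions share their pools of mice, and neighbouring receptors may share probe signal. Olfr193 had a change of 2.15, which did not pass as fitted above (adjusted p = 0.12, limma). It passed in 2 of 19 alternative fits, with the pool as a random block (adjusted p = 0.0383) or a trended robust prior (0.0175). In the 8 fits with 1 pool left out it did not pass (adjusted p up to 0.844). Olfr195 had a change of 3.58 (unadjusted p = 0.00024, limma) and Olfr1110 one of 1.85 (unadjusted p = 0.00329), and neither passed.

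**Figure D5:**
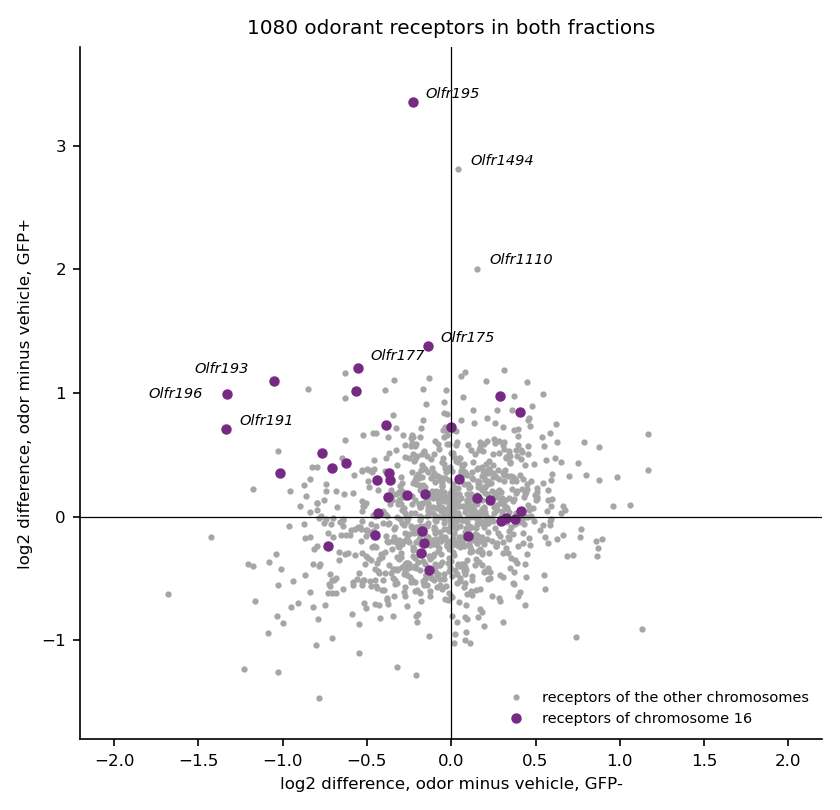
Log2 difference between odor and vehicle in GFP+ cells (y axis) against that in GFP- cells (x axis) for 1080 odorant receptors, with the 36 receptors of chromosome 16 in purple. Olfr1494, Olfr195 and Olfr1110 lie high with GFP- differences near 0, and Olfr191, Olfr193 and Olfr196 lie above 0 in GFP+ and below -1 in GFP- cells.

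Among the remaining probe sets of low p, many measured no signal above background. Of the 20 of lowest p, 10 lay under background on average in GFP+ cells, and 6 of these form 2 sets with the same values on every array, so the 20 are not all separate measurements. Receptors made up 7 of the 20. Gm1993 (adjusted p = 0.0609) and Xkr9 lay higher with odor and the vomeronasal receptor genes Vmn1r138 (adjusted p = 0.164), Vmn1r118 and Vmn1r257 lower, as did Pkd2l2 and 1700018L02Rik, all with 0 of 8 arrays above background. No size is given for these, since both groups lay under background.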

How the data were processed

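The deposited values are probe-set signals on a log2 scale, which the authors summarised and normalized (Affymetrix Expression Console, according to the submitters' processing notes). No version, summarisation method or transformation is given in the sources used here. 6640 control rows of 28846 were left out. Of the 22206 probe sets tested, 19572 had 1 gene symbol and 2634 none, and of 55 genes with more than 1 probe set that of highest mean was used. A group-means model of all 16 arrays (limma 3.58.1, R 4.3.3; 12 residual degrees of freedom) gave the odor difference in each fraction and its change, with Benjamini-Hochberg adjustment over all probe sets at 0.05. Tables and figures used Python 3.11.15 and matplotlib 3.10.9. The code was tested on simulated data. P-values measure the spread between arrays within the groups, each array holding cells of 3 mice, shared over both fractions. The 2 fractions of a pool were treated as independent arrays, also in the test of the change. With the pool as a random block (correlation 0.171), the changes of Olfr1494 and Olfr191 passed too (adjusted p = 0.00536 for both, limma).

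The compared groups and gene lists were chosen with earlier results of these data known. Named were S100a5, Omp, genes past the threshold or, with under 5, those of lowest p up to 5 in each direction, up to 3 passing and 2 other members of lowest p per list, and 6 genes known from an earlier description; others were chosen after their values were seen. Alternatives changed the arrays fitted, block, normalization, filter, prior, weights, background and replicates. 5 of 6 named receptors had a RefSeq window.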

Additional observations from a re-analysis of the deposited data

Results flagged for a closer look

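The odor difference in GFP+ cells differed from that in GFP- cells for Olfr1494 by 2.77 and for Olfr191 by 2.04 on the log2 scale, in the test of that difference itself (adjusted p = 0.0116 for both, limma).

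Among 140 groups of 4 arrays for 62 genes, 7 held an array whose gap to the others was large for the group's range (Dixon's test). Chance gives about 1 in 20 groups, so the count is no more than chance would give. Pcdh10 was highest in odor replicate 4, at 12.86 against 11.21 to 11.46 in the others. Cbr2 was lowest in vehicle replicate 4, at 9.26 against 10.54 to 10.65, and Camk2n2 lowest in odor replicate 2, at 6.89 against 7.24 to 7.28. In vehicle replicate 3, Omp was lowest at 19.19 and Olfr191 lowest at 13.92. In vehicle replicate 1, Olfr433 was highest at 8.76 and Olfr1491 highest at 4.79. All of these are GFP+ values.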

How the results depend on the processing

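Olfr1494 passed under all 20 alternative fits of the GFP+ difference (adjusted p up to 0.0318, limma) and Camk2n1 under 19, its adjusted p being 0.227 when only the GFP+ arrays were fitted. The count of 2 GFP+ calls was 1 with only those arrays, 5 under the replicate block (Pcdh10, Gm1993 and Olfr195 added; Pcdh10 adjusted p = 2.86e-05) and 7 with arrays raised to background, and 1 to 7 over all fits. The receptor count of 1 became 2 under the replicate block and array weights, 4 with arrays raised to background, and 1 to 2 with a pool left out. The GFP- count of 0 became 1 under the replicate block (Pcdh10, adjusted p = 0.0012), both quantile normalizations, the 40% filter, the trended robust prior and array weights (Olfr191 in these 5). The change called 0 to 1 probe sets with a pool left out and 0 without both replicate 1 pools, an alternative added after seeing the data. The 1 list gene called became 0 with only the GFP+ arrays, 2 under the replicate block, 2 under the trended robust prior (Sema7a added) and 3 with arrays raised to background (Pcdh10 and Sema7a added). Counts with arrays raised to background were added after seeing the data.

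Replicate numbers recur across groups, but same-numbered GFP+ samples deviated together with r of 0.0492 to 0.419 over 4 pairs. As r was not above 0.1 in every pair, they were not taken as pairs. Even so, 7 of 8 GFP+ samples correlated best with their own number. The replicate 1 arrays of all 4 groups also deviated together (r of 0.259 to 0.425). Whether the numbers mark a shared batch is not given in the labels. The receptor median ran from -0.07 to 0.05. Of 1234 values for 61 genes, 1208 kept sign and side of the threshold, 14 passed only under an alternative, 1 lost it and 11 turned or met 0. Omp was at 0 under both quantile normalizations. With arrays raised to background Olfr728 was at 0.13, Fabp7 at 0.23 and Gnai2 at 0.0035. A raised array takes its own background level as its value. In replicates 1 to 4 this level was 7.33, 6.46, 6.73 and 6.40 with odor and 6.16, 6.38, 6.76 and 6.53 with vehicle (GFP+). The raised differences thus hold differences of background level by construction. Eif2s3y ran from -0.019 to 1.09 and Kdm5d from -0.41 to 0.62 with a pool left out, and Kdm5d was at -0.048 with array weights. The cause of the other moves was not tested. Of 440 list medians 6 moved by over 1 SD. Signal under background leaves vehicle levels of Camk2n1 and Olfr195 as upper bounds.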

Other observations

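Averaged over both fractions, a contrast added after Camk2n1, Pcdh10 and Sema7a were seen to differ in both, 3 of 22206 probe sets were higher with odor and 0 lower (limma, with the pool as a random block). Camk2n1 was higher by 1.96 ± 0.26 (SE; adjusted p = 0.0152), Olfr1494 by 1.43 ± 0.21 (adjusted p = 0.033) and Pcdh10 by 2.32 ± 0.36 (adjusted p = 0.033). Sema7a was higher by 0.87 ± 0.16 and did not pass (adjusted p = 0.245).

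The Y-linked gene Eif2s3y, looked at after the data were seen, differed between pools of 3 mice of both sexes. In GFP+ cells it stood at 8.24, 9.99, 8.36 and 10.95 in odor replicates 1 to 4 and at 7.33, 9.39, 8.16 and 10.65 in vehicle replicates 1 to 4. The pool numbered 4 was the highest and the pool numbered 1 the lowest in both groups, and the same held in GFP- cells (8.46 and 10.97 with odor, 7.10 and 11.12 with vehicle). Pcdh10 was also highest in the pools numbered 4 in all 4 groups, and what part the sexes of the pooled mice have in its values was not tested.

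2 unnamed probe sets with identical values on all arrays were higher with odor by 1.71 ± 0.83, and 1 was lower by 3.06 ± 1.68 with vehicle values of 5.19 to 13.66. None of these passed.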
